A study of Homo sapiens with 2 samples.

Results

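The genes that carry secretory and membrane proteins into the endoplasmic reticulum (ER), cut off their signal peptides and attach and trim their N-linked glycans were described in HEL cells after L1. HEL is an established human erythroleukemia cell line, and L1 is a derivative of 3,3′-diindolylmethane, a phytochemical of cruciferous vegetables. Wild-type HEL cells received L1 at 1 µM or the vehicle DMSO at 0.5% for 24 h, both in RPMI medium with fetal bovine serum, and 1 RNA library was sequenced for each condition. The 38 genes were chosen by name, and all 38 names were found among the 61806 Ensembl genes of the deposited count table and in the deposited FPKM tables. The libraries held 32556872 counts for DMSO and 27135647 for L1, and the 38 genes took 0.542% and 0.513% of them.

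With 1 library per condition there was no spread between cultures to test against. No p-value is given and no difference below has a replicate check. Levels are given as raw read counts and as the FPKM deposited by the authors (fragments scaled to gene length and library size). The log2 ratio is that of L1 over DMSO from counts scaled by edgeR's TMM method, and its 95% interval is the exact Clopper-Pearson interval of the split of the counts, which covers counting error only. In bulk RNA, fewer expressing cells and less RNA per cell cannot be told apart. HEL identity was checked on lineage markers. Of 13 erythroid and megakaryocytic markers, 12 were expressed in both libraries, with GATA1 at 6469 and 5923 counts and ITGA2B at 40168 and 35288, while PF4 had no count. Of these 12, 3 were at least 2-fold higher with L1 (HBG1, HBA1 and HBA2), where 3.13% of all genes with at least 100 counts were. Each is a globin gene with a near-identical copy. Their log2 ratios were 1.78, 1.15 and 1.16, while HBG2 had a log2 ratio of 0.22. On the other side lay GFI1B at -0.66 and TAL1 at -0.50. GFI1B was the one marker at least 1.5-fold lower, where 8.22% of all genes with at least 100 counts were. Of 7 markers of T cells, B cells, epithelium, liver and fibroblasts, 6 had no count and COL1A1 had 0 and 5.

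A protein destined for the ER is recognised on the ribosome by the signal recognition particle (SRP), which binds the signal peptide, slows elongation and docks at the SRP receptor. The chain is then threaded through the Sec61 channel, the signal peptidase removes the signal peptide, and the oligosaccharyltransferase transfers a preassembled glycan from dolichol to asparagine residues. Glucosidases trim that glycan, and UDP-glucose:glycoprotein glucosyltransferase puts a glucose back on chains that are still misfolded, so that lectin chaperones hold them. Several of these genes are known targets of the unfolded protein response, the program that ER stress switches on, and ER stress is what the study asked about.

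Most of the 38 genes had similar levels in both libraries. At 1.5-fold, 4 were lower with L1 and 1 was higher, and the next paragraph sets these numbers against all genes. SRP9 was 5.18-fold lower and TRAM1 was 2.46-fold lower in the L1 library. SSR1 (log2 ratio -0.92) and SRP14 (-0.67) were the next lowest. The highest was MAGT1, an oligosaccharyltransferase subunit, at 1.91-fold. The other 33 genes had log2 ratios between -0.52 and 0.54. The median over the 38 genes was 0.02, against 0.00 over the 18123 genes with at least 10 counts in a library and -0.03 over the 12365 with at least 100.

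These counts lie near the background of all genes. None of the 38 genes was at least 2-fold higher with L1, where 7.12% of all genes with at least 10 counts and 3.13% of those with at least 100 were. At least 2-fold lower were 2 genes, SRP9 and TRAM1, against 4.83% and 2.92% of all genes by the same minimum counts. At 1.5-fold, 1 gene was higher (MAGT1) and 4 were lower (SRP9, TRAM1, SSR1 and SRP14), where 13.8% and 11.4% of genes with at least 10 counts were higher and lower, and 7.38% and 8.22% of those with at least 100. A log2 ratio above 0 was found for 22 of the 38, where the background was 49.6% with at least 10 counts and 46.4% with at least 100. That number was 17 with DESeq2 size factors and 25 with total counts, so the group as a whole had no direction that held under each scaling. The medians given below for the SRP, the signal peptidase and the oligosaccharyltransferase also changed sign under one or more of these scalings. The whole counting interval lay above 0 for 16 genes and below 0 for 13, and among genes with at least 100 counts this was so for 30.5% and 36.7%. All 38 genes had at least 100 counts in a library, and 32 had at least 1000.

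**Figure D1:**
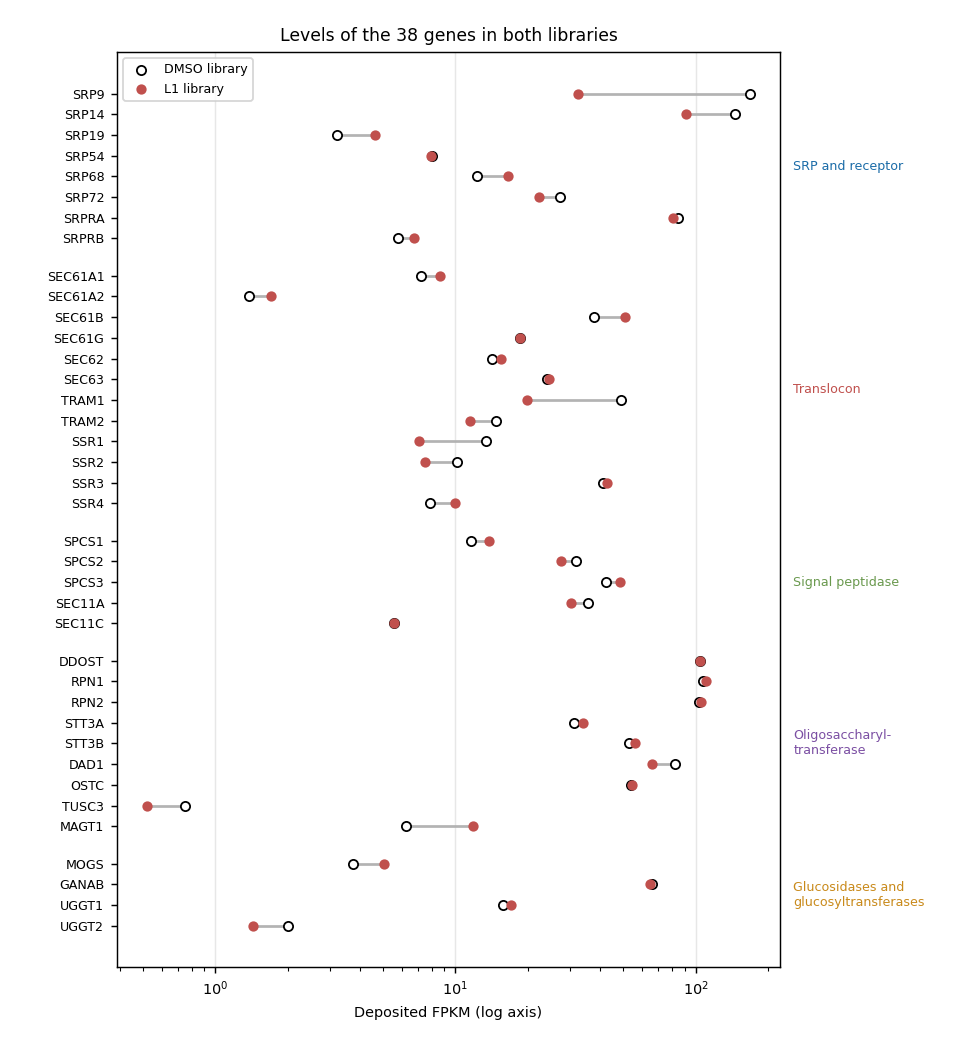
Deposited FPKM (log axis) of the 38 genes in the DMSO library (open circles) and the L1 library (filled circles), 1 library each, grouped by function. SRP9 lay at 168 FPKM with DMSO and at 32.5 with L1, while DDOST lay at 104 in both.

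The SRP is a particle of 6 proteins on 1 RNA. SRP9 and SRP14 form the heterodimer that sits on the Alu domain of that RNA and slows elongation. SRP9 (ENSG00000143742, GRCh38 chr1:225777813-225790466) had 11877 counts with DMSO and 1979 with L1, which the authors' FPKM puts at 168 and 32.5. It had the highest FPKM of all 38 genes with DMSO, and with L1 it lay below SRP14, SRPRA, GANAB and most subunits of the oligosaccharyltransferase. Its log2 ratio was -2.37 (95% interval -2.44 to -2.30). Among the 6479 genes with at least 1000 counts in a library, 14 had a lower log2 ratio. SRP14 (ENSG00000140319, chr15:40035739-40039188) had 9504 and 5140 counts, or 146 and 91.6 FPKM, a log2 ratio of -0.67 (-0.72 to -0.62). Both Alu-domain proteins were thus lower with L1, SRP9 by more than SRP14.

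SRP9 and SRP14 overlapped no exon of another counted gene in GENCODE release 29. Of the 31-base words of the SRP9 transcripts, 13.3% also occur in another gene, nearly all in its processed pseudogene SRP9P1, which had 130 and 109 counts. With SRP9P1 added, the log2 ratio of SRP9 was -2.31. The gene length behind the FPKM of SRP9 was 1.28 times the GENCODE exon length, so these checks may miss part of its counted sequence. For SRP14, 3.88% of the words were shared, and its 4 pseudogenes added 2 counts with DMSO and 3 with L1.

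The other SRP proteins went both ways by less. SRP54, the GTPase that binds the signal peptide, had 2151 and 1847 counts (7.98 and 7.94 FPKM), and its log2 ratio was -0.01 (-0.10 to 0.08). SRP19, which helps to load SRP54 onto the RNA, had 1070 and 1338 counts and the highest log2 ratio of the particle, 0.54 (0.42 to 0.65). Of its words of 31 bases, 26.3% also occur in other genes, and with ZRSR2P1 on the same strand (74 and 15 counts) its log2 ratio was 0.46. SRP68 and SRP72 bind the RNA as a heterodimer, and their values lay on opposite sides of 0. SRP68 had 2940 and 3417 counts, a log2 ratio of 0.43, and SRP72 had 5313 and 3741, a log2 ratio of -0.29. The SRP RNA itself is transcribed by RNA polymerase III and has no poly(A) tail, so a library made from bead-captured mRNA samples it poorly. Its nearly identical genes RN7SL1 and RN7SL2 had 186 and 180 counts with DMSO, 399 and 385 with L1, and log2 ratios of 1.31 each, and RN7SL3 had 0 and 3 counts.

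The receptor to which the particle docks differed little. SRPRA, its GTPase subunit, had 11088 and 9145 counts (84.1 and 80.4 FPKM), a log2 ratio of -0.06. SRPRB, the subunit that anchors it in the membrane, had 765 and 771 counts (5.74 and 6.71 FPKM), a log2 ratio of 0.22 (0.08 to 0.37). Exons of SRPRB overlap RAB6B on the opposite strand, which had 6401 and 5509 counts. The sources used here do not say whether reads were counted by strand. The sum of SRPRB and the overlapping genes of either strand had a log2 ratio of 0.03. RAB6B has most of the counts of that sum, so it does not show the ratio of SRPRB itself. The median over the 8 genes of the particle and its receptor was -0.04, with 3 of 8 above 0.

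In the channel of the translocon, the values of SEC61A1, SEC61A2 and SEC61B were above 0, and SEC61G lay at 0. SEC61A1, the pore subunit, had 2663 counts with DMSO and 2779 with L1 (7.16 and 8.66 FPKM), a log2 ratio of 0.27 (0.20 to 0.35). SEC61B had 1454 and 1682 counts (37.8 and 50.7 FPKM), a log2 ratio of 0.42 (0.32 to 0.53). The third subunit, SEC61G, had 1088 and 939 counts and 18.6 FPKM in both libraries, a log2 ratio of 0.00 (-0.13 to 0.13). SEC61A2, the second pore gene, had the lowest FPKM of the translocon, with 172 and 184 counts (1.38 and 1.71 FPKM) and an interval from 0.00 to 0.62. Exons of SEC61A2 overlap NUDT5 on the opposite strand, with 4750 and 3790 counts, and the sum of both had a log2 ratio of -0.10. SEC62 and SEC63 open the channel for short and post-translational substrates, SEC63 by recruiting BiP. SEC62 had 3573 and 3373 counts (log2 ratio 0.13), and SEC63 had 6593 and 5785 (0.02).

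The lowest values of the translocon were those of the accessory proteins TRAM1, TRAM2, SSR1 and SSR2, while SSR3 and SSR4 lay above 0. TRAM1 (ENSG00000067167, chromosome 8 from 70573442 to 70608387), a membrane protein that contacts the signal sequence of certain substrates, had 6406 counts with DMSO and 2242 with L1, or 48.8 and 19.8 FPKM. Its log2 ratio was -1.30 (-1.37 to -1.23), and 79 of the 6479 genes with at least 1000 counts lay lower. It overlaps no other gene, and 0.38% of its words are shared. TRAM2, its paralog, had 3297 and 2219 counts (14.7 and 11.5 FPKM), a log2 ratio of -0.36 (-0.44 to -0.28).

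The SSR genes encode the TRAP complex, which helps proteins with weak signal sequences to enter the channel. The complex holds its 4 subunits in equal number, and the log2 ratios of their mRNAs spread from -0.92 to 0.34. SSR1 (ENSG00000124783, chr6:7268306-7347446) had 4814 and 2198 counts (13.3 and 7.06 FPKM), a log2 ratio of -0.92 (-0.99 to -0.84), and 157 of the 6479 genes lay lower. SSR2 had 2146 and 1361 counts (10.2 and 7.47 FPKM), a log2 ratio of -0.44 (-0.54 to -0.35). SSR3 had 6786 and 6055 counts (41.2 and 42.6 FPKM), a log2 ratio of 0.05. SSR4 had 1139 and 1242 counts (7.85 and 9.92 FPKM), a log2 ratio of 0.34 (0.22 to 0.46). SSR4 shares exon positions with IDH3G on the opposite strand, and the sum of both had a log2 ratio of 0.06. Over the 12 translocon genes the median was 0.04, with 8 above 0.

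**Figure D2:**
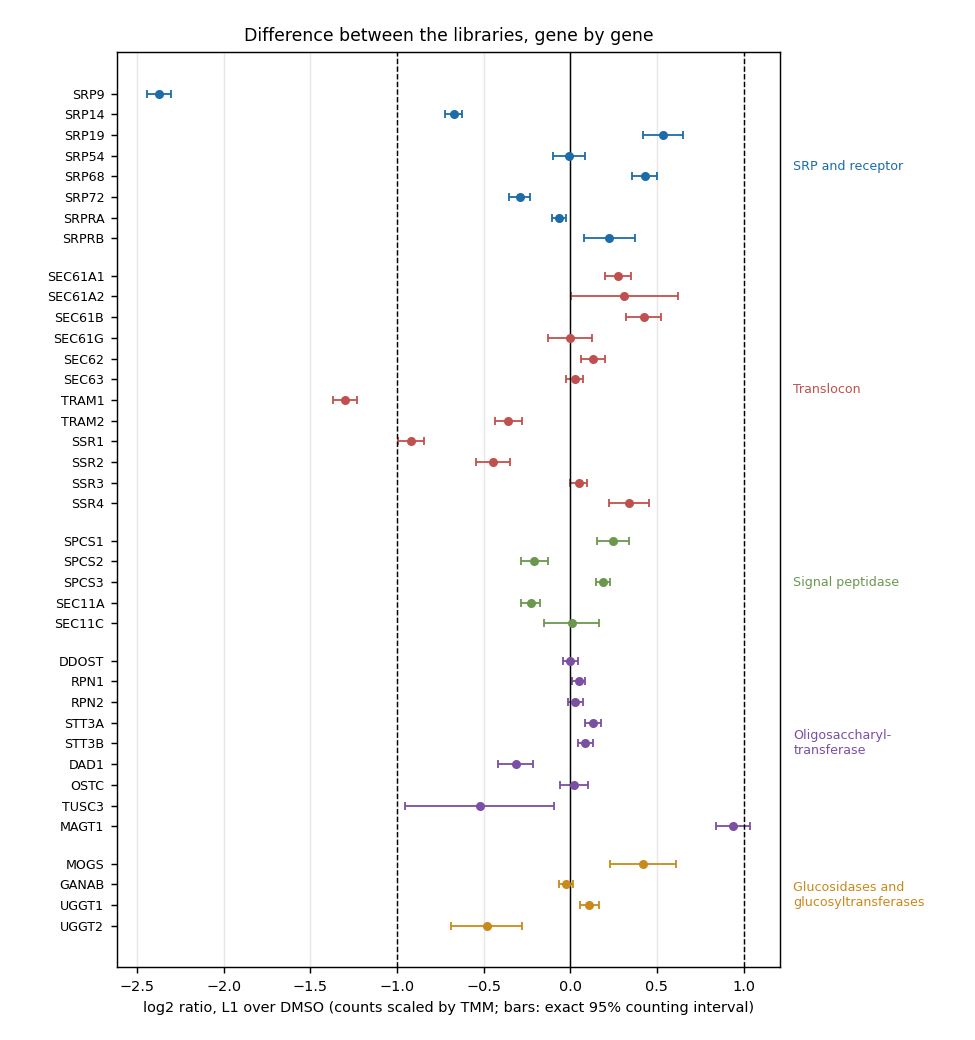
Log2 ratio of L1 over DMSO for each gene (x axis), from TMM-scaled counts of 1 library per condition; bars are exact 95% intervals for counting error only, and dashed lines mark 2-fold. SRP9 at -2.37 and TRAM1 at -1.30 lie past the lower line with their whole interval, and MAGT1 at 0.94 lies just below the upper line, which its interval crosses.

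The signal peptidase, which cleaves the signal peptide from the incoming chain, lay within a narrow range. SEC11A and SEC11C are the alternative catalytic subunits. SEC11A had 6204 and 4570 counts (35.5 and 30.3 FPKM), a log2 ratio of -0.23, and SEC11C had 723 and 627 counts (5.52 and 5.55 FPKM), a log2 ratio of 0.01. Of the accessory subunits, SPCS1 had 1885 and 1930 counts (log2 ratio 0.25), SPCS3 had 9202 and 9052 (0.19), and SPCS2 had 2992 and 2235 (-0.21). With GLT8D1 and NEK4, which overlap SPCS1 on the opposite strand, the log2 ratio of SPCS1 was 0.10. The transcripts of SPCS2 share 18.5% of their words with other genes, mostly with the pseudogene SPCS2P4 (437 and 486 counts), and with its 4 pseudogenes added the log2 ratio was -0.12. All 5 genes lay within 0.5 of 0 on the log2 scale, as 80.0% of genes with at least 100 counts did.

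In the oligosaccharyltransferase, RPN1, RPN2 and DDOST had nearly the same level in both libraries, while the 9 genes of the list ranged from -0.52 (TUSC3) to 0.94 (MAGT1). RPN1 had 13525 counts with DMSO and 12058 with L1, the most of all 38 genes, and 107 and 111 FPKM. RPN2 lay at 103 and 105 FPKM and DDOST at 104 in both libraries. The log2 ratios were 0.05 for RPN1, 0.03 for RPN2 and 0.00 for DDOST, with intervals no wider than from -0.04 to 0.08. OSTC, which joins the form that works at the channel, had 2756 and 2413 counts, a log2 ratio of 0.02. DAD1, a small subunit named as a defender against cell death, had 1984 and 1376 counts (82.0 and 65.9 FPKM), a log2 ratio of -0.31 (-0.42 to -0.21).

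The catalytic subunits were slightly higher with L1. STT3A, which glycosylates chains as they leave the channel, had 7293 and 6891 counts (31.1 and 34.1 FPKM), a log2 ratio of 0.13 (0.08 to 0.18). STT3B, which glycosylates sites that STT3A skipped, had 8397 and 7692 counts (52.8 and 56.0 FPKM), a log2 ratio of 0.09 (0.04 to 0.13). Exons of STT3A overlap those of CHEK1 in the same direction (4232 and 3190 counts), and both genes together gave 0.02.

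MAGT1 and TUSC3 are alternative oxidoreductase subunits of the STT3B form, and they differed in opposite directions. MAGT1 (ENSG00000102158, chrX:77826364-77895593) had 1340 counts with DMSO and 2213 with L1, or 6.20 and 11.9 FPKM. Its log2 ratio was 0.94 (0.84 to 1.04), and 154 of the 6479 genes with at least 1000 counts lay higher. No exon of another counted gene overlaps its exons in GENCODE release 29, and 7.82% of its words are shared, at most 0.85% with any 1 gene. The gene length behind its FPKM was 1.40 times the GENCODE exon length, so these checks may miss part of the counted sequence. TUSC3 had the fewest counts of all 38 genes, 123 and 74 (0.75 and 0.52 FPKM), a log2 ratio of -0.52 with a wide interval from -0.96 to -0.09. The median over the 9 oligosaccharyltransferase genes was 0.03, with 6 above 0.

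Among the glycan trimming genes, the abundant ones did not differ by much. GANAB, the catalytic subunit of glucosidase II, had 10534 and 8944 counts (65.9 and 64.8 FPKM), a log2 ratio of -0.02. MOGS, glucosidase I, had 427 and 493 counts (3.75 and 5.02 FPKM), a log2 ratio of 0.42 (0.23 to 0.61). UGGT1, the folding sensor of the calnexin cycle, had 5685 and 5290 counts (15.8 and 17.0 FPKM), a log2 ratio of 0.11. Its paralog UGGT2 had 517 and 319 counts (2.01 and 1.44 FPKM), a log2 ratio of -0.48 (-0.69 to -0.28). The median over these 4 genes was 0.04, with 2 above 0.

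**Figure D3:**
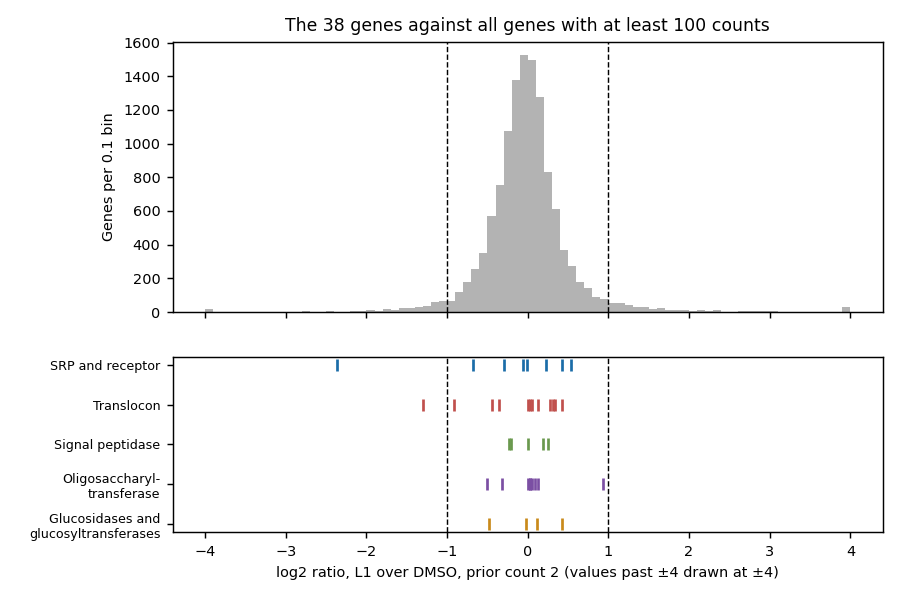
Histogram of the log2 ratios of the 12365 genes with at least 100 counts (top; genes per 0.1 bin, values past 4 in either direction drawn at 4) and the 38 genes by function (bottom, 1 tick per gene); dashed lines mark 2-fold. The ticks spread around 0 with 31 of 38 within 0.5, and SRP9 and TRAM1 lie to the left of the lower line.

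Partners and paralogs were compared in 13 pairs by the difference of their log2 ratios, in which the scaling of the libraries cancels. The exact conditional 95% interval of the difference, for counting error only, left out 0 in 10 pairs. The share for pairs of other genes was not computed, so this count is not shown to be particular to these pairs. Among single genes with at least 100 counts, the whole counting interval lay above 0 for 30.5% and below 0 for 36.7%. The largest difference was that of SRP9 against SRP14. SRP9 was at 1.15 times the FPKM of SRP14 with DMSO and at 0.36 times with L1, a difference of -1.70 (-1.78 to -1.61). MAGT1 was at 8.31 times the FPKM of TUSC3 in DMSO and 22.8 times in L1, a difference of 1.46 (1.02 to 1.90). TRAM1 was at 3.31 times the FPKM of TRAM2 in DMSO and 1.72 times in L1, and was the more abundant of both in each library. The difference of TRAM2 against TRAM1 was 0.94 (0.84 to 1.05).

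Smaller differences were found for SRP68 against SRP72 (0.72), UGGT1 against UGGT2 (0.59), SEC61B against SEC61G (0.42), GANAB against MOGS (-0.44), SRPRA against SRPRB (-0.29), SEC11A against SEC11C (-0.24) and SEC63 against SEC62 (-0.11). In 3 pairs the interval held 0. STT3A against STT3B differed by 0.04 (-0.02 to 0.11), RPN1 against RPN2 by 0.02 (-0.04 to 0.08), and SEC61A1 against SEC61A2 by -0.04 with a wide interval from -0.35 to 0.28. The ratios of levels rest on the gene lengths behind the FPKM. These exceeded the exon length in GENCODE release 29 most for SEC61A1 (2.49 times), SRP54 (2.17), MAGT1 (1.40) and SRP9 (1.28), and with the GENCODE lengths SRP9 was at 1.45 times SRP14 in DMSO and 0.45 times in L1. The log2 ratios between libraries do not depend on length.

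**Figure D4:**
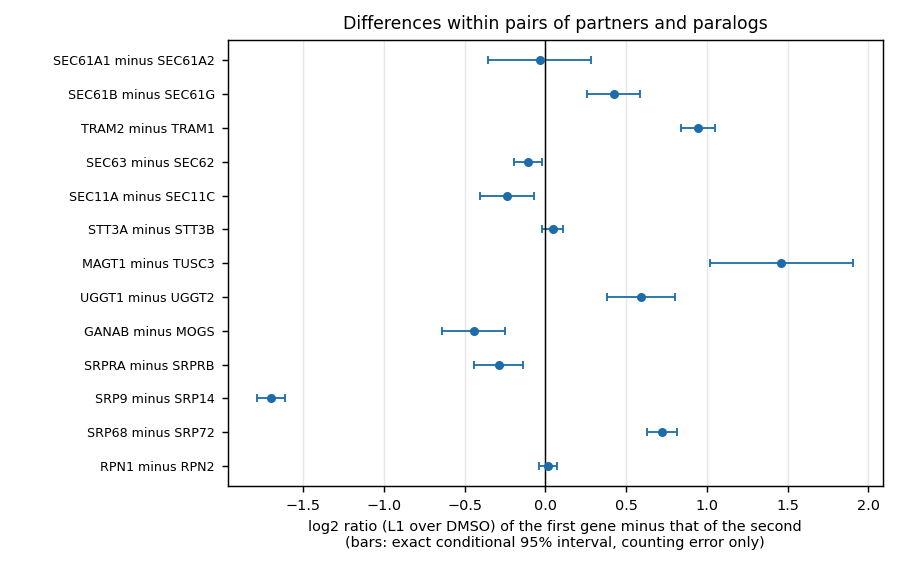
Difference between the log2 ratios (L1 over DMSO) of 2 partners or paralogs in 13 pairs (x axis, first gene minus second), with exact conditional 95% intervals for counting error. SRP9 minus SRP14 lies farthest to the left at -1.70, and the intervals of STT3A minus STT3B, RPN1 minus RPN2 and SEC61A1 minus SEC61A2 hold 0.

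The other genes of these pathways were taken from 7 lists of 74 genes, of which 73 had enough counts and EMC10 had none. At least 2-fold higher with L1 were 3 of the 73, where 7.12% of all genes with at least 10 counts and 3.13% of those with at least 100 were, and none was 2-fold lower (4.83% and 2.92%). At least 1.5-fold higher were 9 (13.8% and 7.38%) and lower was 1 (11.4% and 8.22%). The shares of higher genes lay between both backgrounds at 2-fold and at 1.5-fold. Each of the 73 had at least 100 counts in a library, so the shares by that minimum are the closer comparison. The median was 0.13, and 46 of 73 lay above 0 (49.6% and 46.4%). These lists hold ER chaperones whose higher counts were known when they were written.

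The list that joins the multipass translocon, which inserts proteins with many membrane spans, and the chaperone partners of Sec61 had the highest list median, 0.39 over 13 genes, with 11 above 0. HSPA5, the ER chaperone BiP, had 6430 and 16325 counts, a log2 ratio of 1.56. DNAJB11, a co-chaperone of BiP, had 2377 and 3478 counts (0.76). TMCO1, part of the multipass translocon, had 1727 and 2321 (0.64), and its partner WDR83OS had 72 and 100 (0.69, interval 0.24 to 1.14). The lowest was DNAJC1 at -0.15. NOMO1, NOMO2 and NOMO3 are near-identical copies, and their separate values of 0.45, 0.24 and -0.06 are uncertain.

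In the lectin chaperone cycle the soluble and the membrane-bound lectin lay on opposite sides of 0. CALR, the soluble calreticulin, had 15101 and 26153 counts (170 and 340 FPKM), a log2 ratio of 1.01 (0.98 to 1.03). CANX, the membrane-bound calnexin, had 28632 and 13290 counts (65.4 and 35.2 FPKM), a log2 ratio of -0.89 (-0.92 to -0.86). PDIA3, the disulfide isomerase that works with both, had 23154 and 29974 counts (0.59, just past 1.5-fold), and EDEM3, a mannosidase-like protein of ER-associated degradation, had 766 and 1419 (1.10). PRKCSH, the noncatalytic partner of GANAB, had 4933 and 3450 counts (-0.30). The list of 11 had a median of 0.03 with 8 above 0.

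Among 24 genes that build dolichol and its glycan, the median was 0.09 with 13 above 0. MPDU1, needed for the use of dolichol-linked mannose and glucose, was the one at least 1.5-fold higher, with 873 and 1485 counts (0.98). The lowest was SRD5A3, a reductase in dolichol synthesis, at -0.34. In the ER membrane protein complex, which inserts certain transmembrane segments, 9 genes had a median of 0.12, from EMC1 at -0.31 to MMGT1 (566 and 841 counts) at 0.78. The 7 genes of tail-anchor insertion lay between -0.15 (CAMLG) and 0.23 (BAG6), and the 3 further oligosaccharyltransferase subunits between -0.26 (OST4) and 0.16 (KRTCAP2). Of the 6 genes for nascent chain handling and signal peptide cleavage 1 was above 0, NACA at 0.32, and SPPL2B was lowest at -0.22.

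Promoters were searched for the elements through which ATF6 and XBP1 act in the unfolded protein response. RefSeq promoter windows on GRCh38.p14, from 250 bases before to 50 after a start, were at hand for 31 of the 38 genes, and not for MOGS, RPN1, SPCS1, SRPRA, STT3B, TRAM1 and TUSC3. Both strands were searched for the ER stress response element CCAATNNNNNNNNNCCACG, for its second form ATTGGNCCACG and for the core TGACGTGG of the unfolded protein response element. None of the 31 genes held either form of the ER stress response element, which 0.092% and 0.070% of all 27305 genes with a window held. Exact matches are so rare that their absence from 31 genes says little about these genes. The core TGACGTGG lay in windows of 4 of the 31 genes (12.9%), where 0.927% of all genes had it. In the other pathway lists it lay in windows of 2 of 63 genes. These are few matches of a word of 8 bases. The background holds every RefSeq gene with a window, expressed here or not, and the difference in share was not tested. The stretches before these RefSeq starts are shown for these 4, since they are the members with a match, with the core in capitals as it reads in the direction of the gene (its reverse complement). The RefSeq starts used are not always the outermost ones: by the GENCODE gene bounds the matches of SSR4, SEC62 and SSR3 lie inside the gene, and that of SRP19 lies before it.

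SRP19, plus strand, chr5:112861164-112861193: aagtcttcatgCCACGTCAgagactagaga
SSR4, plus strand, chrX:153794528-153794557: tcagggaggggCCACGTCAgtgctgccaga
SEC62, plus strand, chr3:169966779-169966806: ccctcctcgctCCACGTCAgagggaacc
SSR3, minus strand, chr3:156554148-156554177: tctgataacagCCACGTCAgcaaggaaact

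The log2 ratios of these genes, in the same order, were 0.54, 0.34, 0.13 and 0.05, and the interval of SSR3 held 0. None of the 4 was at 1.5-fold. Neither SRP9 nor MAGT1, the members farthest from 0 with a window, held a match. In the other pathway lists, windows for 63 genes held the ER stress response element in CANX, HSPA5, CALR and ALG12. These are shown for comparison, since they are the genes of these lists with a match, with the whole element in capitals. By another RefSeq start of CANX, the same element spans the start. Whether the element bears on the log2 ratios was not tested.

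HSPA5, minus strand, chr9:125241386-125241414: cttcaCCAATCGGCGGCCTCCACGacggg
CALR, plus strand, chr19:12938379-12938407: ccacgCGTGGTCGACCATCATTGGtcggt
ALG12, minus strand, chr22:49918549-49918577: atggcCCAATCCGAGTTCGCCACGagagg
CANX, plus strand, chr5:179698773-179698801: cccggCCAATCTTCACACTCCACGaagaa

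The log2 ratios were 1.56 for HSPA5, 1.01 for CALR, 0.13 for ALG12 (361 and 340 counts, interval -0.09 to 0.34) and -0.89 for CANX. CALR carries the element on the other strand, so its capitals read as the reverse complement. HYOU1 (log2 ratio 0.39) held the second form at 2 places and the core at 1, where it overlaps the second form, and DHDDS (0.40) held the core at its start. A match of letters is a description and does not show that a factor binds there.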

How the data were processed

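RNA of HEL cells was sequenced from 1 library per condition (DMSO, L1). The labels name fastp 2.0, HISAT2 2.1.0, StringTie and hg38. The authors deposited raw read counts per Ensembl gene, without normalization, and FPKM values for 13924 genes. For the 38 genes the deposited FPKM equals the count divided by a fixed gene length and by the TMM effective library size, so both carry the same ratio between libraries. The counting program, its annotation and its use of strand are not given in the sources used here.

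TMM factors were computed with edgeR 4.0.16 (R 4.3.3), by which the DMSO library counted as 1.16 times the L1 library. DESeq2 1.42.0 gave other size factors. Other steps used Python 3.11.15, pandas 2.3.3, numpy 2.4.6, scipy 1.17.1 and matplotlib 3.10.9. Calls and medians over many genes have 2 prior counts and a minimum of 10 counts in a library. Ratios of single genes have none. The depths give intervals of counting error only. No test was run. The scripts were tested on simulated libraries. The count table has 61806 rows, of which 58254 are in GENCODE release 29 (GRCh38), the source of positions, overlaps and shared words. Promoter sequences are from RefSeq (GRCh38.p14).

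All 38 members are named, with those genes of the other lists that were past 1.5-fold or highest or lowest in their list. PRKCSH, the NOMO genes and the lineage markers with printed values were chosen after their values were seen, and HYOU1, DHDDS and ALG12 for their promoter matches. The members and the lists were chosen with earlier results of these data known. The alternatives were total counts, DESeq2 and upper quartile scaling, log2(FPKM + 1), prior counts of 0.5 and 5, other minimum counts and the whole interval past a threshold. Sums with overlapping genes and pseudogenes were added after the data were seen.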

Additional observations from a re-analysis of the deposited data

How the results depend on the processing

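The numbers of members past 2-fold and past 1.5-fold were the same under the other 3 scalings, log2(FPKM + 1), prior counts of 0.5 and 5, other minimum counts and the whole interval past the threshold. The number above 0 (22) lay between 17 and 25, and the median over all members between -0.01 (DESeq2 size factors) and 0.07 (total counts), so its sign depends on the scaling. The median of the SRP group was above 0 with total counts (0.01) and upper quartile scaling (0.0027), and those of the signal peptidase (-0.02) and the oligosaccharyltransferase (-0.0023) were below 0 with DESeq2 size factors. The oligosaccharyltransferase median was 0.079 with total counts. Of 190 values of single members under these alternatives, 178 stayed within the counting interval, 12 left it, and no member whose interval left out 0 had another sign. Of the sums with overlapping genes and pseudogenes, which were chosen after seeing the data, 1 changed the sign of a member whose interval left out 0: SEC61A2 with NUDT5 on the opposite strand, to -0.096, because NUDT5 has most of the counts. DDOST, whose interval held 0, went from -0.00050 to 0.02 with PINK1-AS added. No paired analysis was possible because there is only 1 library of each treatment. Genes with few counts, such as TUSC3, are limited by depth.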

Other observations

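Across the 38 genes, the log2 ratio showed a Spearman rho of 0.11 with exon length, 0.22 with the GC content of the transcripts and -0.02 with the share of words found in other genes. These are descriptions over genes of the same 2 libraries, which are not independent replicates. Exons of SRPRA overlap FOXRED1 (3485 and 2900 counts) and FAM118B (938 and 1268) on the opposite strand, those of SEC61A1 overlap RUVBL1 (2287 and 2616), and those of SRP19 overlap REEP5 (1784 and 1939). With all overlapping genes summed, the log2 ratios of the sums were -0.01 for SRPRA, 0.34 for SEC61A1 and 0.38 for SRP19. In the sum for SRP19, REEP5 has most of the counts.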
